A study of Mus musculus with 23 samples.

Results

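Cultured group 2 innate lymphoid cells (ILC2) were compared with cultured T helper 2 (Th2) cells in 8 of the 23 small RNA libraries of a mouse study on microRNA control of ILC2 in allergic inflammation. The 8 libraries were those whose labels give a culture, 4 of cultured ILC2 and 4 of cultured Th2. The deposited counts came in 4 tables, each with 1 library of either kind, and the libraries of a table are called pair 1 to pair 4 here and were compared within their pair. Both groups were wild type. The ILC2 were sorted from lung as CD45+ Thy1+ cells that lacked lineage markers and CD4 and carried CD25 and ST2, and were then kept for 10 days with 10 ng/ml of IL-33, TSLP and IL-7. The Th2 cells began as CD4+ T cells taken from spleen and lymph nodes with magnetic beads, and were stimulated for 5 days through CD3 and CD28 with IL-4 at 500 U/ml and an interferon gamma antibody at 10 µg/ml. Lineage, tissue of origin, way of selection, stimulus and days in culture therefore cannot be told apart. From lung, 2 more groups served for comparison. IL-33 ILC2 (n = 4) were wild-type ILC2 of the same sort after 500 ng of IL-33 was aspirated over 3 days. OVA-lung Th2 (n = 3) carried the Il4tm1LKy reporter allele and were sorted for the reporter, CD4 and CD3 from mice given 50 µg of ovalbumin in alum and then challenged in the airway over 3 days. Ratios of related microRNAs and some shares of reads were also taken in unstimulated lung ILC2 (n = 4) and in CD62L-high CD44-low CD4 T cells (n = 4), both wild type. Per the labels, libraries were built from 5 to 50 ng of total RNA of 8000 to 3000000 cells. The labels do not tell whether a group's libraries are from different animals, so p-values measure the spread between these samples, which may be technical.

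MicroRNAs are short RNAs, cut from hairpins, that guide Argonaute proteins to messenger RNAs and repress them. Bases 2 to 8, the seed, do most of the pairing, so microRNAs with the same seed share many targets. ILC2 and Th2 cells both make type 2 cytokines: ILC2 respond to alarm cytokines of the epithelium such as IL-33, whereas Th2 cells respond to antigen through the T cell receptor. In lymphocytes miR-146a restrains NF-kB signaling, miR-17-92 promotes growth and survival, and miR-24 and miR-27 are known to restrain Th2 responses in mouse T cells.

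The mature sequences of the microRNAs on which the results turn are given 5′ to 3′ with the seed in capitals, from RefSeq on build GRCm38.p6. Of the 384 microRNAs tested, 310 had a mature sequence there. The first set was higher in cultured ILC2. miR-146a-5p lies at chr11:43374435-43374456 on the minus strand, outside any annotated gene of that strand, and miR-146b-5p at chr19:46342790-46342811 on the plus strand, in an intron of Mfsd13a. They share a seed and differ at G18A and U21C, counted from 1 at the 5′ end and read from miR-146a to miR-146b. miR-99b-5p (chr17:17830194-17830215), let-7e-5p (chr17:17830366-17830387) and miR-125a-5p (chr17:17830817-17830840) come from 1 cluster on the plus strand. The hairpins of let-7e and miR-125a lie in an intron and an exon of Spaca6. miR-541-5p (chr12:109742422-109742446) and miR-409-3p (chr12:109743204-109743225), both in introns of the noncoding gene Mirg, and miR-379-5p (chr12:109709065-109709085) stand for the Dlk1-Dio3 locus and lie on the plus strand.
miR-146a-5p: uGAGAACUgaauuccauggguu
miR-146b-5p: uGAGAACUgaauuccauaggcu
miR-99b-5p: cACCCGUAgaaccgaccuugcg
let-7e-5p: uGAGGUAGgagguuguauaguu
miR-125a-5p: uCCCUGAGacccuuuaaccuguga
miR-541-5p: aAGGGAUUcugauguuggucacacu
miR-409-3p: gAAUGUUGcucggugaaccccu
miR-379-5p: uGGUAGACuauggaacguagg

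The second set was lower in cultured ILC2, except for miR-27a-3p, which is shown beside its close relative. miR-27b-3p (chr13:63300760-63300780, plus strand) lies in an exon of 2010111I01Rik, and miR-27a-3p (chr8:84208727-84208747, plus strand) outside any annotated gene of its strand. They share a seed and differ at C19U, read from miR-27a to miR-27b. miR-17-5p (chr14:115043684-115043706, plus strand) lies in an exon of Mir17hg, and its relative miR-106a-5p (chrX:52742541-52742563, minus strand) differs from it at U10A. miR-210-3p lies at chr7:141221407-141221428 on the minus strand. miR-183-5p (chr6:30169711-30169732) and miR-182-5p (chr6:30165962-30165986) share a cluster on the minus strand, and miR-342-3p (chr12:108658680-108658702, plus strand) lies in an intron of Evl. A read that ends before the differing base cannot be assigned to 1 of 2 such relatives.
miR-27b-3p: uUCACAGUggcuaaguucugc
miR-27a-3p: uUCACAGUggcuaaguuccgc
miR-17-5p: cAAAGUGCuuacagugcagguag
miR-106a-5p: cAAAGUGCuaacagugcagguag
miR-210-3p: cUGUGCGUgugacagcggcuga
miR-183-5p: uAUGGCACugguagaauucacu
miR-182-5p: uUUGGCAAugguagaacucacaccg
miR-342-3p: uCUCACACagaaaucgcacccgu

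The cultured libraries held between 711746 and 28371920 counts assigned to microRNAs, and the deepest was cultured Th2 library 1. miR-21a-5p, known to be induced by lymphocyte activation, took 5.56%, 24.4%, 40.0% and 62.2% of the reads in cultured ILC2 libraries 1 to 4, against 29.4%, 36.4%, 51.9% and 82.2% in cultured Th2 libraries 1 to 4. Libraries of the same number deviated together (r = 0.408, 0.216, 0.322 and 0.711 across 204 microRNAs), so the number entered the fit as a block. For libraries of unlike number r ran from −0.449 to 0.286, the highest for cultured ILC2 library 1 with cultured Th2 library 2. Levels are given as CPM, counts scaled to an equal total per library, and log2 differences are cultured ILC2 minus cultured Th2 with their standard error, from edgeR with TMM scaling. The median log2 difference of all 384 microRNAs was −0.51 under TMM, −0.86 under size factors, −0.02 under library totals and −0.41 with totals that leave out miR-21a-5p, and each difference is to be read against that shift. The blood cell microRNA miR-142a-5p stood at 11702, 20913, 12410 and 1074 CPM in cultured ILC2, against 16269, 24271, 13397 and 1297 CPM in cultured Th2, so both groups carried it. MicroRNAs alone were analysed here, so the messenger RNAs that define ILC2 or Th2 cells were not checked.

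In cultured ILC2 27 microRNAs were higher and 21 lower than in cultured Th2, 48 of 384 (12.5%; 7.03% higher and 5.47% lower), at an adjusted p below 0.05 by edgeR's quasi-likelihood test with Benjamini-Hochberg adjustment. The higher ones included miR-146a-5p, miR-146b-5p, the miR-99b, let-7e and miR-125a cluster and 12 members of the Dlk1-Dio3 locus. The lower ones included miR-27b-3p, miR-17-5p, miR-210-3p, miR-183-5p, miR-182-5p and both arms of miR-342 and of miR-150. Of the 48, 38 lay on the same side in all 4 pairs, and the CPM of the groups did not overlap for 23, while over all tested microRNAs 5.73% were higher and 1.82% lower without overlap. The calls were chosen on the same libraries and pairs, so these counts describe them and are no separate support. The split between higher and lower depended on the scaling, at 18 to 24 under size factors, 34 to 11 under library totals and 24 to 18 under totals that leave out miR-21a-5p. The calls also depended on the block and on pair 4. Without the block 1 microRNA was higher, miR-146a-5p, and 0 were lower (61 at an unadjusted p below 0.05, against 85 with the block). Leaving out a single cultured library gave 21, 31, 22 and 18 calls without cultured ILC2 library 1, 2, 3 and 4, and 28, 28, 34 and 16 without cultured Th2 library 1, 2, 3 and 4. Without both libraries of pair 4, an alternative chosen after seeing the data, 9 calls remained, all among the 48. They were miR-146a-5p, miR-146b-5p, miR-99b-5p, miR-541-5p and miR-1a-3p, which were higher, and miR-27b-3p, miR-17-5p, miR-210-3p and miR-150-3p, which were lower. In bulk RNA a lower share of cells that hold a microRNA and less of it per cell cannot be told apart.

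**Figure D1:**
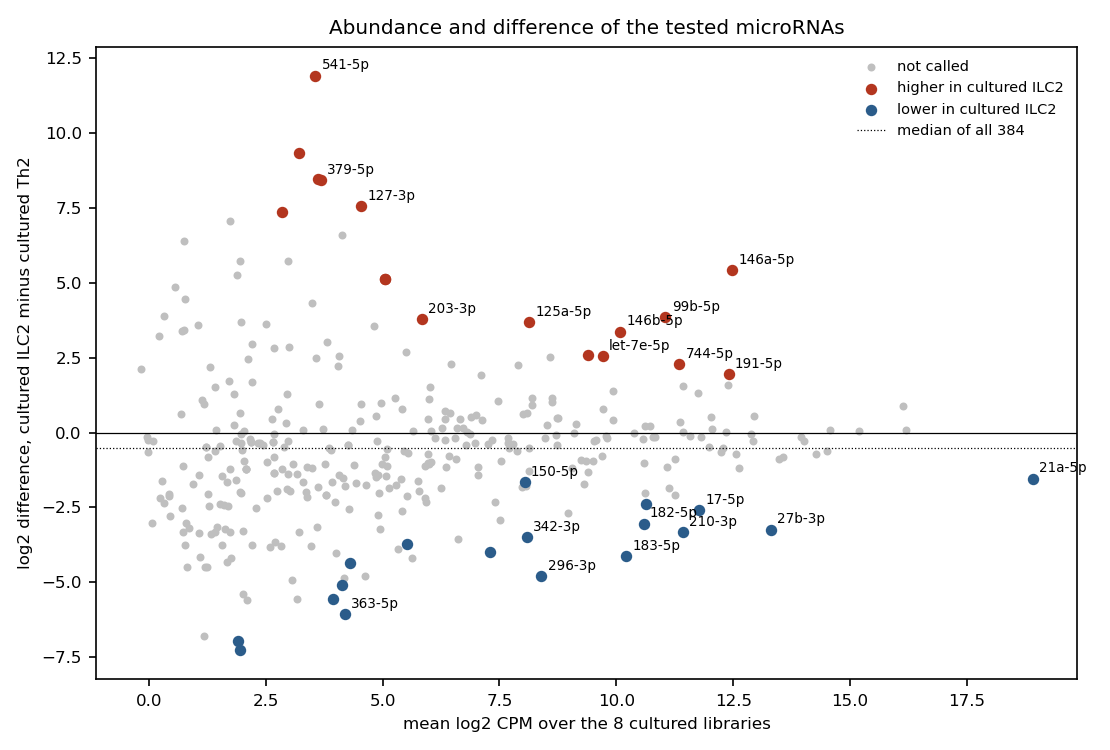
Log2 difference between cultured ILC2 and cultured Th2 (vertical) against the mean log2 CPM over the 8 libraries (horizontal), for the 353 tested microRNAs with reads in both groups; the other 31 had 0 reads in 1 group or in both and are not drawn. Colored points passed the test, and the abundant ones among them run from miR-146a-5p at the top to miR-27b-3p and miR-21a-5p at the right.

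The largest difference among the abundant microRNAs was in miR-146a-5p, which lowers Traf6 and Irak1 and so damps NF-kB signaling downstream of IL-33 and other receptors. Cultured ILC2 libraries 1 to 4 held 46869, 54734, 34472 and 12297 CPM, and cultured Th2 libraries 1 to 4 held 974, 1316, 797 and 46.2 CPM. Every cultured ILC2 library lay above every cultured Th2 library, and library 4 was the lowest of its group in both. The log2 difference was 5.43 ± 0.61 (adjusted p = 1.19e-08). It stayed between 5.07 and 5.77 with any 1 cultured library left out, and the call held under each alternative run, the fit without the block included. miR-146b-5p, its relative with the same seed, stood at 6162, 4565, 2335 and 1068 CPM in cultured ILC2, against 594, 327, 138 and 46.7 CPM in cultured Th2. These groups did not overlap either, and the difference was 3.37 ± 0.66 (adjusted p = 0.000641, ended by leaving out the block).

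Taken by seed, miR-146a-5p and miR-146b-5p together made up 5.30%, 5.93%, 3.68% and 1.34% of the microRNA reads in cultured ILC2, against 0.157%, 0.164%, 0.0935% and 0.00929% in cultured Th2. The family was thus among the larger ones in cultured ILC2 and a minor one in cultured Th2. miR-146b-5p was nevertheless the smaller partner in cultured ILC2, with 0.131, 0.0834, 0.0678 and 0.0869 reads per read of miR-146a-5p, against 0.61, 0.249, 0.174 and 1.01 in cultured Th2. The remaining tested member, the passenger arm miR-146b-3p, did not pass (5.25 ± 1.97, adjusted p = 0.0734 by edgeR).

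The cluster of miR-99b, let-7e and miR-125a on chromosome 17 had the main product of each of its hairpins higher in cultured ILC2. miR-99b-5p, of a family known to target mTOR, stood at 5603, 3810, 8423 and 12451 CPM in cultured ILC2 and at 64.1, 615, 522 and 410 CPM in cultured Th2. The groups did not overlap, and the difference was 3.85 ± 0.62 (adjusted p = 3.90e-05, 3.34 to 4.06 with 1 cultured library left out). miR-125a-5p, known in the mouse from blood stem cells and regulatory T cells, held 866, 3909, 2609 and 382 CPM in cultured ILC2, against 46.6, 427, 0.994 and 19.6 CPM in cultured Th2 (3.68 ± 1.12, adjusted p = 0.0315). Its 0.994 CPM in cultured Th2 library 3 stand for fewer than 3 reads. let-7e-5p, of the let-7 family that opposes growth, held 4213, 4220, 2818 and 466 CPM in cultured ILC2, against 88.7, 156, 481 and 71.3 CPM in cultured Th2 (2.55 ± 0.85, adjusted p = 0.0376). For both, the highest cultured Th2 library reached past the lowest cultured ILC2 library, which was library 4, while each pair on its own had cultured ILC2 higher. The sum of the 6 entries of the cluster took 1.07%, 1.22%, 1.39% and 1.37% of the reads in cultured ILC2, against 0.0211%, 0.125%, 0.10% and 0.0524% in cultured Th2. Of the 6 tested entries 3 were higher and 0 lower, with a median of 2.15, beside 7.03% higher of all tested. The call of miR-125a-5p ended without any 1 cultured ILC2 library or without cultured Th2 library 1, 2 or 4 (3.27 to 4.19). That of let-7e-5p ended without any 1 cultured ILC2 library or without cultured Th2 library 1 or 2 (2.15 to 3.34), and both ended with size factors.

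Among other abundant microRNAs, miR-744-5p, whose hairpin lies in an intron of Map2k4, was higher in cultured ILC2 without overlap, at 10420, 5540, 4705 and 2488 CPM, against 287, 2326, 885 and 243 CPM in cultured Th2 (2.30 ± 0.67, adjusted p = 0.0213). miR-191-5p, a widely expressed microRNA, stood at 8334, 24445, 15340 and 4222 CPM in cultured ILC2, against 2326, 11747, 901 and 107 CPM in cultured Th2 (1.96 ± 0.61, adjusted p = 0.0315). miR-151-3p was at 1692, 828, 649 and 3575 CPM in cultured ILC2, against 152, 233, 37.8 and 421 CPM in cultured Th2 (2.60 ± 0.81, adjusted p = 0.0315). In all 4 pairs each of these 3 was higher in cultured ILC2, and the groups overlapped for miR-191-5p alone among them. Their calls were less stable than those of the miR-146 pair. That of miR-744-5p ended without cultured ILC2 library 1, 2 or 4 or cultured Th2 library 1 or 4 (1.81 to 2.70), that of miR-191-5p without any 1 library but cultured Th2 library 2 (1.62 to 2.45), and that of miR-151-3p without any 1 of the 8 (2.28 to 2.96). miR-203-3p, known from skin epithelium and named here after its values were seen, had even levels within cultured ILC2. It stood at 225, 204, 155 and 142 CPM in cultured ILC2, against 9.59, 10.2, 12.9 and 3.77 CPM in cultured Th2 (3.80 ± 1.13, adjusted p = 0.0248). Its call ended without any 1 cultured ILC2 library or without cultured Th2 library 2 or 4 (3.18 to 4.20).

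**Figure D2:**
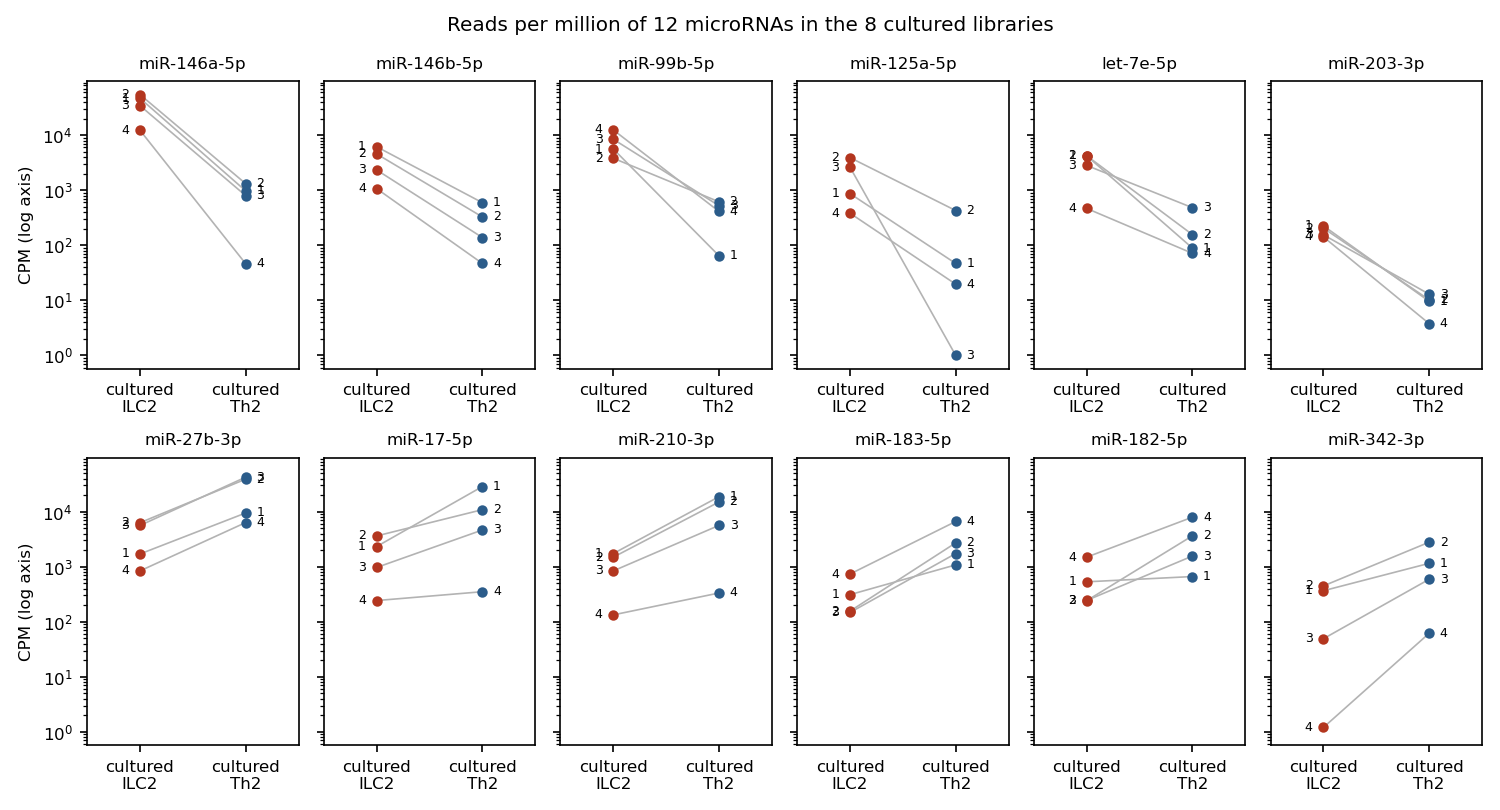
CPM (log axis) of 12 microRNAs in each cultured ILC2 library (left in each panel) and each cultured Th2 library (right), with the number of the pair beside each point and a line joining the pair. The upper row shows microRNAs higher in cultured ILC2, such as miR-146a-5p at 12297 to 54734 CPM against 46.2 to 1316 CPM, and the lower row those lower in cultured ILC2.

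The miR-23/27/24 cluster exists in 2 copies, 1 on chromosome 8 with miR-23a and miR-27a (chr8:84208518-84208758 over both hairpins) and 1 on chromosome 13 with miR-23b and miR-27b (chr13:63300484-63300784). Among their tested products miR-27b-3p alone passed the test. miR-27b-3p was lower in cultured ILC2, at 1704, 6298, 5612 and 839 CPM, against 9471, 39004, 42378 and 6340 CPM in cultured Th2. Every cultured ILC2 library lay below every cultured Th2 library, and the difference was −3.24 ± 0.62 (adjusted p = 0.000486, −3.85 to −3.11 with 1 cultured library left out). Its call held under each alternative run except the fit without the block. miR-23b-3p differed by −1.87 ± 0.67 (adjusted p = 0.0651), miR-23a-3p by 1.55 ± 0.58 (adjusted p = 0.0726) and miR-27a-3p by 1.32 ± 0.61 (adjusted p = 0.173), none of which passed edgeR's test. With library totals miR-23a-3p (2.14) and miR-27a-3p (1.91) passed as higher, with totals without miR-21a-5p only miR-23a-3p of these did (1.63), and with size factors miR-23b-3p passed as lower (−2.17). miR-24-3p, which both copies encode, differed by −0.30 ± 0.41 (adjusted p = 0.745).

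A ratio within a library does not move with the scaling between libraries. Cultured ILC2 libraries 1 to 4 held 3.73, 5.81, 3.71 and 3.05 reads of miR-23a-3p per read of miR-23b-3p, against 0.431, 0.401, 0.398 and 0.315 in cultured Th2 libraries 1 to 4. The chromosome 8 member was thus the larger in each cultured ILC2 library and the smaller in each cultured Th2 library. The mean log2 ratio differed by 3.37 ± 0.22 (SE, 3.18 to 3.49 with 1 library left out), and the SD between libraries was 0.392 in cultured ILC2 and 0.197 in cultured Th2 (n = 4 each). For miR-27a-3p over miR-27b-3p, the ratio was 2.54, 2.23, 2.13 and 0.682 in cultured ILC2, against 0.0663, 0.139, 0.073 and 0.0333 in cultured Th2. Library 4 was the lowest of both groups, the groups did not overlap, and the mean log2 ratio differed by 4.62 ± 0.61 (4.27 to 5.06 with 1 library left out). These 2 ratios and that of miR-146b-5p to miR-146a-5p (−2.17 ± 0.62) gave p = 0.0286 in an exact two-sided permutation test, the smallest that 4 against 4 libraries allow. Adjusted over the 15 ratios tested it was 0.143, so 0 of 15 passed, with 3 of 15 at an unadjusted p below 0.05. With so few libraries, a few fully separated ratios could not pass this adjustment, so the count of 0 does not decide whether they differ.

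The same ratios in the other 15 libraries are given as a description. miR-23a-3p over miR-23b-3p was 7.5, 5.25, 7.52 and 7.93 in IL-33 ILC2 and 6.61, 9.02, 8.06 and 11.6 in lung ILC2. It was 1.32, 1.72 and 2.29 in OVA-lung Th2 and 0.241, 0.267, 0.488 and 0.271 in CD4 T cells. Each ILC2 library, cultured or not, lay above each T cell library, and the OVA-lung Th2 cells lay between cultured ILC2 and cultured Th2. For miR-27a-3p over miR-27b-3p the values were 2.77, 4.31, 4.62 and 1.32 in IL-33 ILC2, 2.02, 4.51, 5.01 and 0.899 in lung ILC2, 0.472, 0.732 and 0.459 in OVA-lung Th2 and 0.0641, 0.057, 0.0853 and 0.0134 in CD4 T cells. Here the lowest ILC2 value, 0.682 in cultured ILC2 library 4, overlapped with the highest of OVA-lung Th2. The ILC2 ratios came from cells that all began in lung, and the lowest T cell ratios from cells of spleen and lymph node, so the 2 cannot be told apart there. The summed seed family of miR-27a-3p and miR-27b-3p took 0.603%, 2.03%, 1.76% and 0.141% of the reads in cultured ILC2, against 1.01%, 4.44%, 4.55% and 0.655% in cultured Th2, and was lower in all 4 pairs. miR-146b-5p over miR-146a-5p was 0.396, 0.429, 0.529 and 1.4 in IL-33 ILC2 and 1.78, 1.14, 0.804 and 3.81 in lung ILC2. It was 0.0231, 0.0538 and 0.0153 in OVA-lung Th2 and 0.103, 0.0293, 0.0139 and 0.0306 in CD4 T cells. Outside culture this ratio was thus higher in ILC2 than in T cells, the reverse of the cultured direction.

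**Figure D3:**
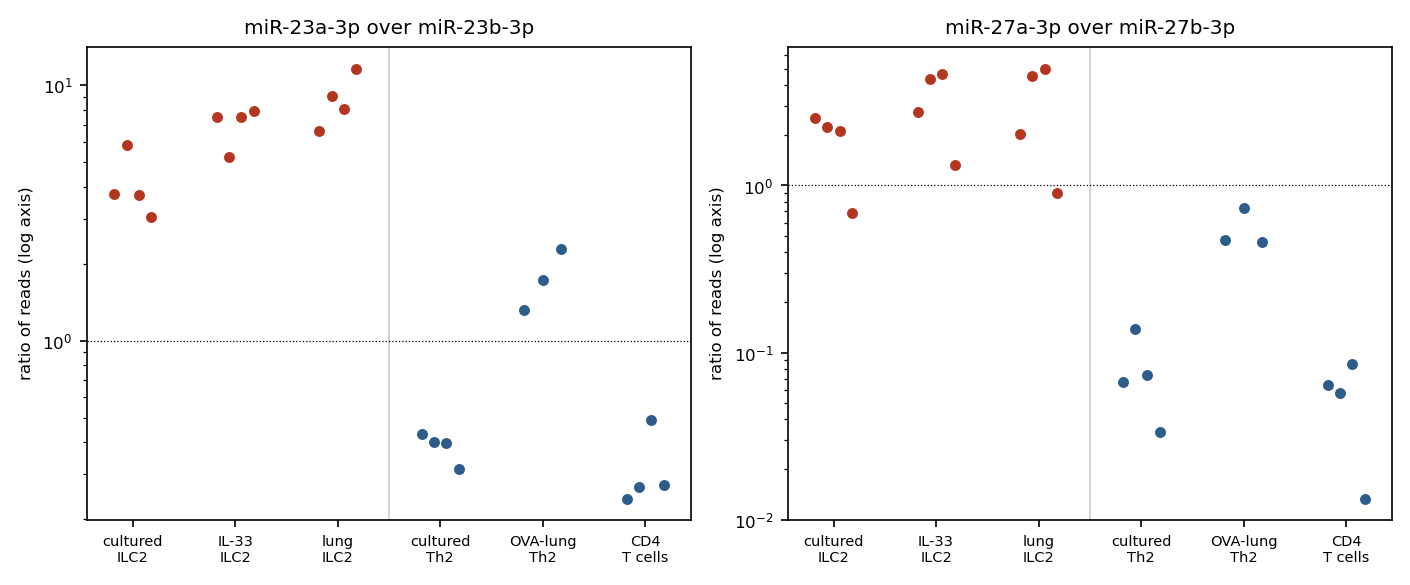
Reads of miR-23a-3p per read of miR-23b-3p (left) and of miR-27a-3p per read of miR-27b-3p (right), on log axes, with 1 point per library in the 6 cell populations and a dotted line at equal reads. Cultured ILC2 lie at 3.05 to 5.81 and at 0.682 to 2.54, and cultured Th2 at 0.315 to 0.431 and at 0.0333 to 0.139.

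Of the growth-promoting miR-17-92 cluster, miR-17-5p was lower in cultured ILC2. Its levels were 2325, 3624, 969 and 243 CPM in cultured ILC2, against 28609, 10874, 4647 and 351 CPM in cultured Th2. It was lower in all 4 pairs, but the ranges overlapped, with both libraries of pair 4 the lowest of their group, and the difference was −2.59 ± 0.62 (adjusted p = 0.00658, −3.08 to −2.23 with 1 cultured library left out). The most abundant member, miR-92a-3p, differed by −0.62 ± 0.49 (adjusted p = 0.496), and miR-20a-5p, with the seed of miR-17-5p, by −0.16 ± 0.85 (adjusted p = 0.959). Of 12 tested members 1 was lower and 0 higher, beside 5.47% lower and 7.03% higher of all tested. All 12 lay below 0 under TMM, as did 245 of all 384, and the median was −1.0, against −0.51 for all tested microRNAs. The summed cluster took 0.703%, 4.86%, 2.93% and 6.49% of the reads in cultured ILC2, against 3.97%, 7.78%, 5.13% and 0.940% in cultured Th2, so its direction turned in pair 4. The paralog clusters on chromosomes X and 5 had 2 of 11 members lower and 0 higher, with a median of −2.32, beside 5.47% lower of all tested. With library totals 0 of the 11 were lower, and with totals without miR-21a-5p 1 was. The 2 lower under TMM were miR-106a-5p (−3.98 ± 1.30, adjusted p = 0.0367), at 55.2, 180, 1.41 and 18 CPM in cultured ILC2 against 1187, 1463, 648 and 46.2 CPM in cultured Th2, and miR-363-5p (−6.08 ± 1.96, adjusted p = 0.0353). The 1.41 CPM of miR-106a-5p in cultured ILC2 library 3 stand for fewer than 3 reads. miR-363-5p had 1, 37, 0 and 1 reads in cultured ILC2, against 4142, 354, 44 and 196 reads in cultured Th2. The call of miR-106a-5p ended without any 1 library but cultured ILC2 library 4 (−5.38 to −3.35), and that of miR-363-5p without any 1 but cultured ILC2 library 2 (−7.73 to −5.49). The summed paralog clusters took 1.255%, 3.102%, 4.287% and 2.838% of the reads in cultured ILC2, against 2.653%, 4.972%, 4.357% and 0.8894% in cultured Th2. That sum was nearly equal in pair 3 and was higher in cultured ILC2 in pair 4.

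Several microRNAs that T cell activation is known to raise were lower in cultured ILC2. miR-210-3p, the best known target of the hypoxia factor HIF-1 among microRNAs, stood at 1736, 1491, 840 and 133 CPM in cultured ILC2, against 18749, 15028, 5640 and 333 CPM in cultured Th2. It was lower in all 4 pairs, and only the low cultured Th2 library 4 overlapped with cultured ILC2 (−3.34 ± 0.82, adjusted p = 0.00720, −3.72 to −3.10 with 1 cultured library left out). miR-183-5p, of a polycistron with miR-96 and miR-182, was at 311, 156, 148 and 737 CPM in cultured ILC2, against 1081, 2716, 1736 and 6637 CPM in cultured Th2. The groups did not overlap, and pair 4 was the highest in both (−4.12 ± 1.02, adjusted p = 0.00720, ended at −3.71 without cultured Th2 library 4). miR-182-5p, which is induced by IL-2 in T cells and targets Foxo1, was at 532, 242, 244 and 1494 CPM in cultured ILC2, against 663, 3646, 1564 and 7954 CPM in cultured Th2, with some overlap (−3.04 ± 0.88, adjusted p = 0.0213). Its call ended without cultured ILC2 library 2 or 4 or cultured Th2 library 3 or 4 (−3.48 to −2.62), and with library totals. miR-96-5p did not pass (−4.17 ± 1.67, adjusted p = 0.0960). The summed cluster took 0.0843%, 0.0478%, 0.0413% and 0.227% of the reads in cultured ILC2, against 0.200%, 0.689%, 0.358% and 1.46% in cultured Th2, and was lower in all 4 pairs.

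miR-21a-5p, the most abundant microRNA of either cultured group by mean level, was lower in each pair by the shares given above, at −1.54 ± 0.45 (adjusted p = 0.0213). That call ended without cultured ILC2 library 1 or 4 or cultured Th2 library 1 or 4 (−1.89 to −1.20) and with library totals, with or without miR-21a-5p in them. miR-155-5p, which Th2 cells and ILC2 both need for full responses, stood at 366, 20185, 3099 and 614 CPM in cultured ILC2, against 3320, 6000, 1694 and 307 CPM in cultured Th2. Its direction differed between pairs, and the difference was 0.02 ± 1.16 (adjusted p = 0.995). In the whole list of activation-linked microRNAs, 1 of 24 was higher (miR-146a-5p) and 4 were lower, with a median of −1.29, beside 7.03% higher and 5.47% lower of all tested. With library totals 2 were higher and 2 lower, and with totals without miR-21a-5p 1 was higher and 3 were lower.

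MicroRNAs that mark resting lymphocytes had 4 of 19 tested members lower and 0 higher, with a median of −1.05, beside 5.47% lower of all tested. The number lower was 2 with library totals, 3 with totals without miR-21a-5p and 5 with size factors. The summed list did not follow these calls. It took 2.232%, 5.441%, 4.486% and 1.11% of the reads in cultured ILC2, against 4.121%, 5.265%, 4.395% and 0.6544% in cultured Th2. The sum was lower in cultured ILC2 in pair 1 and higher in the other 3 pairs. miR-342-3p stood at 366, 448, 49.2 and 1.20 CPM in cultured ILC2, against 1152, 2791, 591 and 61.8 CPM in cultured Th2. The 1.20 CPM of cultured ILC2 library 4 stand for fewer than 3 reads. Within each pair miR-342-3p was lower in cultured ILC2, although the groups overlapped and both were lowest in pairs 3 and 4 (−3.49 ± 0.81, adjusted p = 0.00521, −4.25 to −3.07 with 1 cultured library left out). Its other arm miR-342-5p differed by −3.72 ± 1.18 (adjusted p = 0.0315). miR-150-3p, of the hairpin whose main product miR-150-5p lowers Myb, had 0, 17, 4 and 10 reads in cultured ILC2, against 397, 208, 77 and 290 reads in cultured Th2. It did not overlap in CPM (−4.36 ± 1.02, adjusted p = 0.00521, −4.72 to −4.0 with 1 cultured library left out). miR-150-5p was at 14.1, 489, 500 and 63.7 CPM in cultured ILC2, against 114, 996, 610 and 68.8 CPM in cultured Th2 (−1.65 ± 0.55, adjusted p = 0.0376). These groups overlapped, and the gap was small in pairs 3 and 4. The call of miR-342-5p ended without cultured ILC2 library 2, 3 or 4 or cultured Th2 library 2, 3 or 4 (−4.62 to −3.13), and that of miR-150-5p without cultured ILC2 library 1, 2 or 4 or cultured Th2 library 1, 3 or 4 (−2.13 to −1.27).

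Outside these lists, miR-296-3p was lower without overlap, at 557, 74.3, 0 and 97.3 CPM in cultured ILC2, against 899, 1864, 977 and 2606 CPM in cultured Th2 (−4.80 ± 1.17, adjusted p = 0.00702, ended without cultured Th2 library 4, −6.11 to −4.06 over all 8). miR-7a-5p, known from pancreatic islets, was at 10041, 1018, 121 and 96.1 CPM in cultured ILC2, against 50659, 2676, 869 and 130 CPM in cultured Th2 (−2.40 ± 0.69, adjusted p = 0.0213). It was highest in pair 1 and lowest in pair 4 in both groups, and the call ended without cultured ILC2 library 1 or 3 or cultured Th2 library 1 or 4 (−2.87 to −2.17). The remaining lower calls were of few reads: miR-181c-3p (−5.55 ± 1.79, adjusted p = 0.0349), miR-467c-5p (−5.09 ± 1.60, adjusted p = 0.0315), miR-335-3p, miR-7688-5p, miR-504-5p, miR-1955-5p and miR-501-5p. The calls of miR-181c-3p and miR-467c-5p ended with library totals (adjusted p = 0.0753 and 0.0809 by edgeR). Apart from these 2, they are named after their values were seen. Of these, miR-335-3p had 0 reads in all 4 cultured ILC2 libraries, against 117, 205, 17 and 37 reads in cultured Th2, at least 10.5-fold lower against a floor of 3 reads per library (adjusted p = 0.0213, ended without cultured ILC2 library 2 or 3 or cultured Th2 library 4). Cultured Th2 library 2, at 95.1 CPM, decided that bound, which was 2.74 without pair 2.

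The microRNAs of the imprinted Dlk1-Dio3 locus on chromosome 12, which are expressed from the maternal chromosome and known from embryonic and stem cells, were higher in cultured ILC2 at low levels. The 79 entries of the locus together had 1434, 4152, 394 and 6901 reads in cultured ILC2 libraries 1 to 4, against 234, 32, 0 and 17 reads in cultured Th2. As shares of all microRNA reads these were 0.155%, 0.125%, 0.0554% and 0.83% in cultured ILC2, against 0.000825%, 0.00148%, 0% and 0.000427% in cultured Th2, where 0 reads in library 3 allow up to 0.000298%. The ranges lay far apart, and cultured ILC2 library 4 was the highest. Of the 79 entries, 73 had a read in cultured ILC2 and 15 in cultured Th2. The filter on low counts left 17, and an entry could pass it on its reads in cultured ILC2 alone. Of these 17, 12 were higher and 0 lower, beside 7.03% higher of all tested microRNAs. Without both libraries of pair 4, 1 of the 12 was called, miR-541-5p.

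miR-541-5p had 370, 309, 25 and 573 reads in cultured ILC2, against 0, 3, 0 and 0 reads in cultured Th2 (adjusted p = 0.000486). Its call held with any 1 cultured library left out, and no fold is given because cultured Th2 held 3 reads in all. miR-409-3p had 146, 259, 11 and 790 reads in cultured ILC2, against 2, 0, 0 and 7 reads in cultured Th2 (8.48 ± 2.10, adjusted p = 0.00720, ended without cultured ILC2 library 4, 7.27 to 11.2 over all 8). miR-379-5p had 57, 349, 14 and 1198 reads in cultured ILC2, against 31, 0, 0 and 2 reads in cultured Th2 (8.44 ± 2.12, adjusted p = 0.00777, ended without library 4 of either group, 6.92 to 9.60 over all 8). The other called members, named after their values were seen, were miR-127-3p, miR-411-5p, miR-434-5p, miR-434-3p, miR-433-3p, miR-431-5p, miR-666-5p, miR-679-5p and miR-381-3p. The last 6 of these had 0 reads in all 4 cultured Th2 libraries. miR-381-3p had 0, 96, 0 and 337 reads in cultured ILC2 and was at least 82.9-fold higher against a floor of 3 reads per library, a bound that was 6.44 without pair 4. miR-431-5p had 159, 46, 0 and 0 reads and was at least 35.6-fold higher, a bound that was 2.70 without pair 1. For these 2 a single cultured ILC2 library decided the bound. The bounds of the other 4 were 8.74 to 23.6, and 5.33 to 54.8 with any 1 pair left out. miR-127-3p, the most abundant of these, stood at 112, 159, 259 and 3022 CPM in cultured ILC2, against 2.26, 2.32, 0 and 0 CPM in cultured Th2 (7.57 ± 1.94, adjusted p = 0.00857). Its call ended without cultured ILC2 library 3 or 4 or cultured Th2 library 2 (5.93 to 12.2).

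Markers of other cell types were read in the same libraries, and their calls stand beside 7.03% higher and 5.47% lower of all tested microRNAs. The 10 mesenchymal entries took 0.0132%, 0.0111%, 0.0125% and 0.124% of the reads in cultured ILC2, against 0.000525%, 0.000232%, 0.0224% and 0.000753% in cultured Th2. Cultured ILC2 library 4 stood out there as it did for the Dlk1-Dio3 locus, chiefly through miR-143-3p, a microRNA of smooth muscle (1199 CPM, against 67.0 to 105 CPM in the other cultured ILC2 libraries). The mesenchymal sum was higher in cultured ILC2 in pairs 1, 2 and 4. It was lower in pair 3, where cultured Th2 library 3 held 0.0224%, the highest share of its group. That library had 0 reads of the Dlk1-Dio3 locus. In lung ILC2 libraries 1 to 4 the mesenchymal share was 0.485%, 1.17%, 0.459% and 0.585%. The Dlk1-Dio3 share in those libraries was 0.00801%, 0.0314%, 0% and 0.013%. The part of mesenchymal cells in the Dlk1-Dio3 result was not tested. Of the 7 tested mesenchymal markers 1 was higher, miR-145a-3p, with 31 reads in cultured ILC2 and 0 in cultured Th2, whose call ended with size factors and with totals without miR-21a-5p. Erythroid markers had 2 of 6 higher, miR-486a-5p and miR-486b-5p, whose counts were identical and so are 1 signal, at 110, 101, 592 and 335 CPM in cultured ILC2 against 0.282, 4.17, 0.994 and 8.54 CPM in cultured Th2 (5.13 ± 1.60, adjusted p = 0.0315). That call ended without cultured ILC2 library 1 or 4 or cultured Th2 library 1, 2 or 3 (4.65 to 7.30), with size factors and with totals without miR-21a-5p. The summed erythroid entries took 0.0367% to 0.209% in cultured ILC2. In cultured Th2 they took 0.193% in library 3 and 0.000240% to 0.0057% in the others. miR-451a, the defining one, did not pass (1.91 ± 1.24, adjusted p = 0.407 by edgeR). Muscle miR-1a-3p had 19, 128, 24 and 6 reads in cultured ILC2 and 0 in all cultured Th2 libraries, at least 19.1-fold higher against the same floor (adjusted p = 0.00521, bound 29.4 without pair 3 and 15.5 to 20.7 without any other). It was the 1 higher of 2 tested liver and muscle markers. Their summed entries took 0.00534% to 0.0338% in cultured ILC2. In cultured Th2 they took 0.290% in library 3 and 0.00213% to 0.00894% in the others. Cultured Th2 library 3 was thus the highest of its group in the mesenchymal, erythroid and liver or muscle sums. Myeloid miR-223-3p had 0, 67, 13 and 0 reads in cultured ILC2, against 21, 115, 13 and 0 reads in cultured Th2, and did not pass (−2.01 ± 1.65, adjusted p = 0.513). Of endothelial markers 0 of 2 and of epithelial markers 0 of 9 passed by edgeR, with sums of 0.00379% to 0.0502% and 0.00613% to 0.0257% in cultured ILC2, against 0.000452% to 0.0338% and 0.00869% to 0.0606% in cultured Th2. The remaining higher calls, miR-184-3p (74 reads against 0) and miR-224-5p, were also of few reads and are named after their values were seen.

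**Figure D4:**
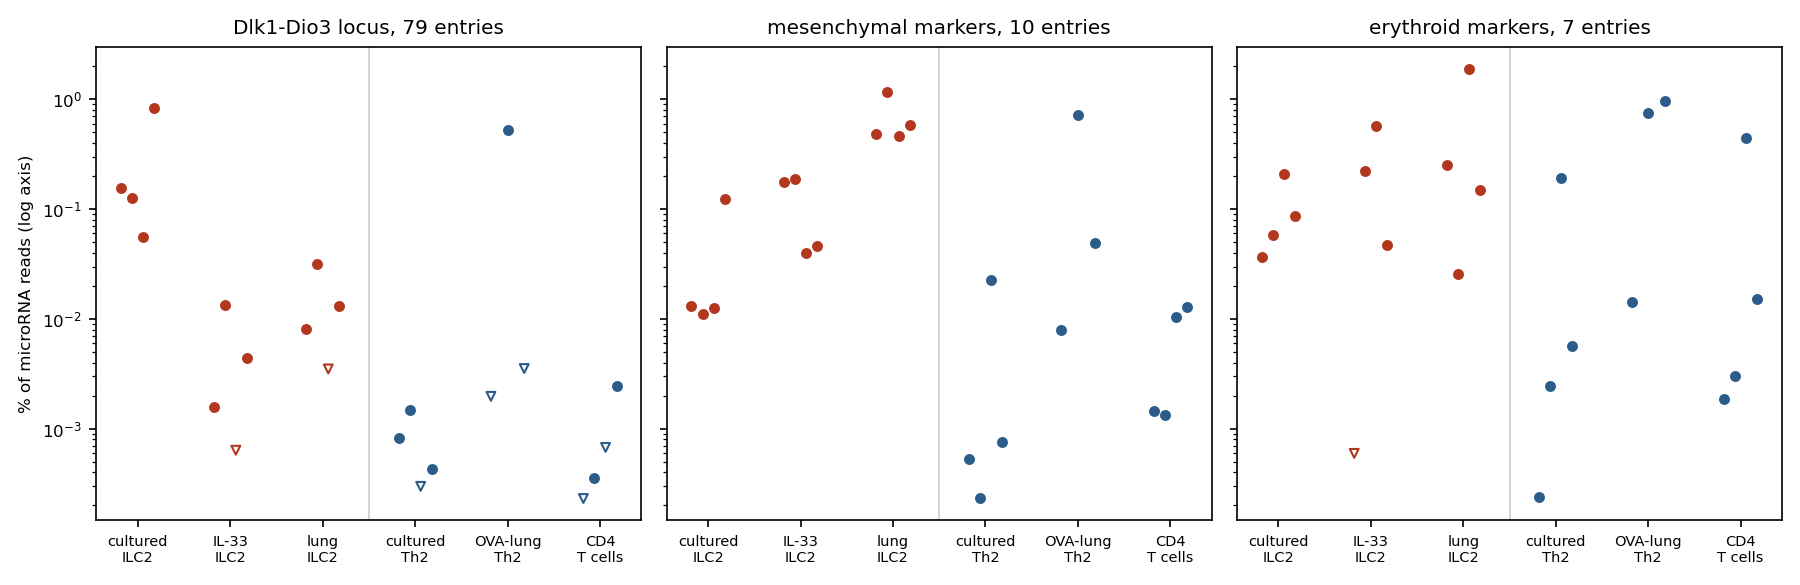
Percentage of all microRNA reads (log axis) taken by the entries of the Dlk1-Dio3 locus, by mesenchymal markers and by erythroid markers, with 1 point per library in the 6 cell populations; open triangles are libraries with 0 reads, drawn at the share of 3 reads. Dlk1-Dio3 reads took 0.0554% to 0.83% in cultured ILC2 and at most 0.00148% in cultured Th2, and 1 of 3 OVA-lung Th2 libraries was high for the locus and for mesenchymal markers alike.

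The let-7 family, which opposes growth in many cell types, took a large share of reads in both groups. Its 22 entries took 57.1%, 25.4%, 26.6% and 12.4% of the reads in cultured ILC2, against 12.9%, 19.1%, 19.5% and 8.58% in cultured Th2. The sum was larger in cultured ILC2 in each pair, by the most in pair 1. Shares also move with miR-21a-5p, which took a smaller part of the reads in cultured ILC2 in each pair. Of 17 tested members 1 passed, let-7e-5p, as higher, beside 7.03% higher of all tested. The number higher was 2 with library totals, 1 with totals without miR-21a-5p and 0 with size factors. The median was 0.08, which turned to −0.22 with size factors. let-7i-5p stood at 343620, 61620, 80236 and 24926 CPM in cultured ILC2, against 85436, 28624, 35510 and 8410 CPM in cultured Th2 (0.90 ± 0.45, adjusted p = 0.234). let-7f-5p (0.09 ± 0.46) and let-7a-5p (0.06 ± 0.48) lay close to 0, both with an adjusted p of 0.959.

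The calls in the other families are given beside 7.03% higher and 5.47% lower of all tested microRNAs. The miR-23/27/24 list had 1 of 11 tested members lower and 0 higher (1 lower and 2 higher with library totals, 2 lower with size factors), with a median of −0.30 that turned to 0.23 with library totals. The miR-181 family, known from T cell receptor signaling in the thymus, had 1 of 6 lower, miR-181c-3p (0 with library totals), and its main member miR-181a-5p did not pass (−0.93 ± 0.64, adjusted p = 0.425). The imprinted Sfmbt2 locus, which holds many near-identical hairpins whose reads cannot be assigned to single members with certainty, had 1 of 36 lower, miR-467c-5p (0 with library totals), with 35 below 0 under TMM and a median of −1.29. The miR-15-16 (10 tested), miR-29 (5), miR-30 (11) and miR-26 (3) families had 0 calls by edgeR under TMM, and miR-29b-3p passed as lower with size factors (−2.34). They had medians of −0.40, −1.05, −0.23 and 0.21, of which that of miR-15-16 turned to 0.20 and that of miR-30 to 0.38 with library totals, and that of miR-26 to −0.11 with size factors.

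Whether the cultured difference was the one seen between activated ILC2 and Th2 cells from lung was tested as an interaction in the same fit, in which the 2 differences share no library. The lung comparison, IL-33 ILC2 against OVA-lung Th2, had 7 microRNAs higher (1.82%) and 6 lower (1.56%), 13 of 384 (3.39%). Called in both comparisons were 6, all in the same direction: miR-146b-5p, miR-99b-5p and miR-151-3p were higher and miR-21a-5p, miR-150-5p and miR-150-3p lower. They are 12.5% of the 48 cultured calls and 46.2% of the 13 lung calls. Of the 48 cultured calls 26 (54.2%) had the same sign in the lung comparison, against 53.9% of all tested microRNAs. By direction these were 10 of the 27 higher and 16 of the 21 lower calls. The called members of the Dlk1-Dio3 locus all had the opposite sign in lung, where OVA-lung Th2 library 2 held all reads of the locus in its group. The lung difference of miR-99b-5p was 3.00 log2 and that of miR-146b-5p 4.62, beside 3.85 and 3.37 in culture.

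The cultured difference itself differed from the lung difference for 21 of 384 microRNAs (5.47%), 18 higher (4.69%) and 3 lower (0.781%). miR-146a-5p led the abundant ones. In lung it stood at 66660, 23260, 10050 and 3674 CPM in IL-33 ILC2, against 16020, 19970 and 12720 CPM in OVA-lung Th2, so that the groups overlapped and the difference was not called (0.65 ± 0.57, adjusted p = 0.493). The interaction was 4.78 ± 0.77 (adjusted p = 8.13e-05), ended by leaving out the block. miR-210-3p went the other way. It was at 325, 435, 683 and 26.3 CPM in IL-33 ILC2, against 374, 334 and 11.8 CPM in OVA-lung Th2. These levels stand for 164, 39, 322 and 39 reads, against 57, 91 and 1 reads. The lung log2 difference of 1.74 was not called. Both lung groups were thus far below cultured Th2 libraries 1 to 3. Its interaction was −5.07 ± 1.24 (adjusted p = 0.0117), ended by leaving out the block and by limma. miR-103-3p (−2.69 ± 0.75, adjusted p = 0.0262) and miR-24-3p (−2.14 ± 0.62, adjusted p = 0.0271) were higher in IL-33 ILC2 than in OVA-lung Th2 and not called in culture. Both of these calls ended by leaving out the block, by limma and with library totals, with or without miR-21a-5p in them. They also ended without cultured Th2 library 1 and without OVA-lung Th2 library 2 or 3, and that of miR-24-3p also without IL-33 ILC2 library 3. The OVA-lung Th2 cells carried the reporter allele and the other groups did not, which cannot be told apart from their other differences.

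Of the 18 higher interactions 15 were members of the Dlk1-Dio3 locus, and they rested on 1 lung library. The locus had 8, 12, 0 and 65 reads in IL-33 ILC2, against 0, 1440 and 0 reads in OVA-lung Th2, all 1440 in library 2, whose mesenchymal markers were also high (0.714%, against 0.00786% and 0.0495% in libraries 1 and 3). Without OVA-lung Th2 library 2, an alternative chosen after seeing the data, the interaction count was 3: miR-146a-5p (4.93), miR-184-3p and miR-210-3p (−5.83). Without OVA-lung Th2 library 1 it was 33, without cultured ILC2 library 2 or 4 it was 14 or 9, and without cultured Th2 library 2 it was 10.

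**Figure D5:**
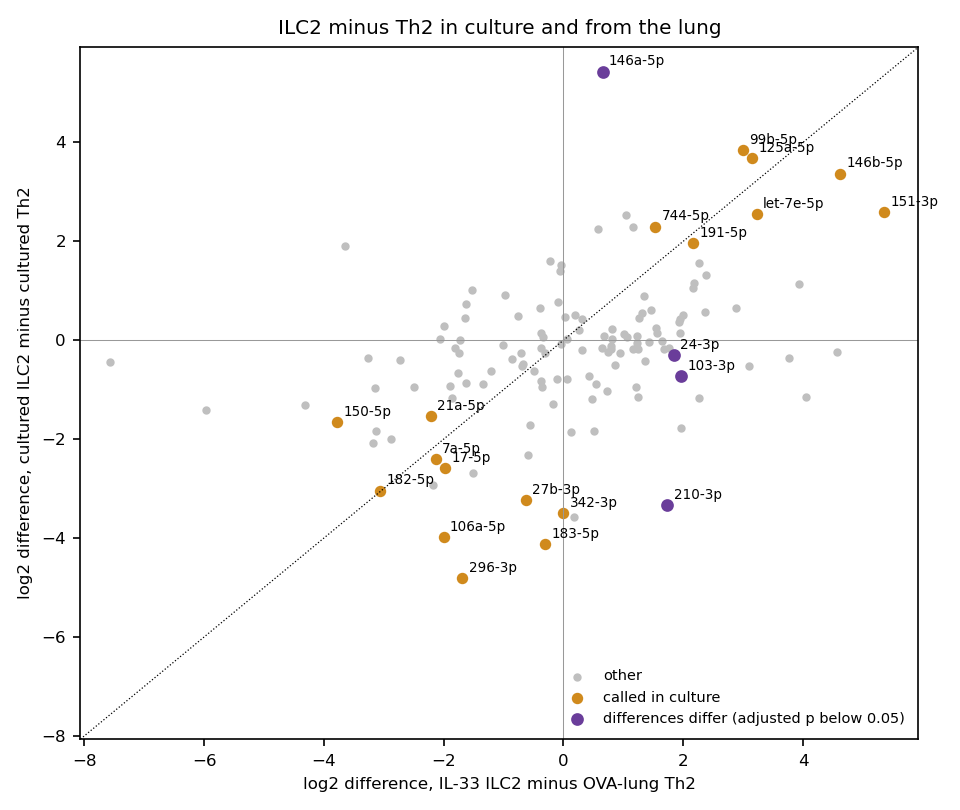
Log2 difference of cultured ILC2 minus cultured Th2 (vertical) against that of IL-33 ILC2 minus OVA-lung Th2 (horizontal), for the 134 microRNAs whose log2 CPM averaged 6 or more; the dotted line marks equal differences. miR-146a-5p (5.43 in culture, 0.65 in lung) lies far above the line and miR-210-3p (−3.34, 1.74) far below it, while miR-99b-5p and miR-182-5p lie near it.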

How the data were processed

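Small RNA sequencing of 23 mouse libraries in 6 groups was analysed from the deposited expected counts per mature microRNA. They came in 4 tables of 871, 1141, 482 and 725 entries, each with 1 library per group, except that the fourth held no OVA-lung Th2 library. The submitters' processing notes name build mm10 and DESeq2, with the aligner and counter not given in the sources used here. Among deposited counts above 0, 9.98% were not whole, as when reads are shared between entries, and all were rounded. Entries missing from a table (417 of 1256 were in all 4) were set to 0. A table of RPM (deposited by the authors, with each library scaled to a sum of 1000000 reads) served in 1 alternative. The 6 columns of the authors' group averages and 1 empty line were not used.

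Counts of all 23 libraries were fitted together in edgeR 4.0.16 (R 4.3.3) with TMM scaling, filterByExpr by group, robust quasi-likelihood dispersions and Benjamini-Hochberg adjustment over the 384 microRNAs kept. The terms were the group and the library number, which is the count table: same-numbered libraries of any 2 groups correlated above 0.1 in 51 of 55 pairs (median 0.375, against −0.147 for other numbers). Calls have an adjusted p below 0.05. Ratios within a library used a pseudocount of 0.5 reads and exact two-sided permutation tests (SciPy 1.17.1). A fold against a group at 0 is a bound against 3 reads per library. Counting intervals and such floors cover counting error only. Alternatives were size factors, library totals with and without miR-21a-5p, no filter on low counts, no block, DESeq2 1.42.0, limma 3.58.1 on log2(RPM + 1), the 8 cultured libraries alone and each library left out. The pair of the fourth count table and each lung library were left out as alternatives chosen after seeing the data, as was each pair for the bounds.

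Named microRNAs were, of the calls whose log2 CPM averaged 6 or more and whose direction was 1 in all 4 count tables, the 12 most raised and the 12 most lowered. Added were up to 3 members of each list with the smallest p, the 5 most abundant microRNAs of each group, both arms of preset activation and blood cell microRNAs, marker list members and the extreme interaction calls above the same level. Beyond the rule, miR-27a-3p and miR-20a-5p were named for their ratios, after their values were seen. The comparison, members and lists were chosen with earlier results of these data known.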

Additional observations from a re-analysis of the deposited data

Results flagged for a closer look

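In groups of 4 libraries a single library was looked for whose log2 CPM lay far from the other 3 (Dixon's test at its 95% critical value). Chance flags about 1 in 20 groups, and 8 of 111 groups tested were flagged. Among abundant microRNAs, let-7a-5p was low in cultured ILC2 library 4 at 16500 CPM (46272, 41375 and 43341 CPM in libraries 1 to 3). let-7f-5p was high in cultured ILC2 library 1 at 78100 CPM (63353 to 65480 CPM in the others) and low in cultured Th2 library 1 at 15500 CPM (50499 to 55060 CPM in the others). In cultured Th2 library 4, whose reads were mostly miR-21a-5p, 3 were low: miR-146a-5p at 46.2 CPM (797 to 1316 CPM in the others), miR-29a-3p at 1030 CPM (29941 to 38588 CPM) and miR-200b-3p at 10.5 CPM (67.6 to 92.4 CPM). The mesenchymal miR-143-3p was high in cultured ILC2 library 4 at 1200 CPM (67.0 to 105 CPM in the others), and miR-150-3p was low in cultured Th2 library 1 at 14.0 CPM (72.8 to 96.5 CPM). The log2 difference of miR-146a-5p between cultured ILC2 and cultured Th2 was 5.07 to 5.77 with any 1 cultured library left out.

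For 4 abundant microRNAs the cultured difference differed from the lung difference by the interaction test: miR-146a-5p by 4.78, miR-210-3p by −5.07, miR-103-3p by −2.69 and miR-24-3p by −2.14 on the log2 scale.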

How the results depend on the processing

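With size factors, library totals, library totals without miR-21a-5p, DESeq2 and limma the number of cultured calls stayed within 1.5 times of 48 (39 to 62), with 29 of the 48 called under all 3 scalings. DESeq2 put 37 lower, while library totals and limma put 11 lower each. The 8 cultured libraries alone gave 22 calls (14 higher, 8 lower), and no filter on low counts gave 31 (16 higher). Without the replicate block 1 call was left (1 higher, 0 lower). With the cultured pair of the fourth count table left out, 9 calls were left (5 higher, 4 lower). With 1 cultured library left out the count ran from 16 to 34 (8 to 24 higher, 5 to 17 lower), and 10 of the 48 calls held without any 1 of them. The cultured call of miR-146a-5p held under each alternative run. The interaction count of 21 was 9 without that pair (6 higher), ran from 3 to 33 with 1 cultured or lung library left out (2 to 28 higher, 1 to 7 lower) and had 10 higher with no filter on low counts. Its lower calls numbered 11 with DESeq2, 1 with either library total, 1 with limma and 0 without the replicate block. Its total was 16 without the block. No call changed sign. Of the 15 ratios 0 passed with a pseudocount of 1 read or in a paired sign-flip test by pair, whose smallest p is 0.125. That sign-flip test could pass no ratio, and the permutation test could not pass a few separated ratios after adjustment. The cause was not tested for any of these changes. Depth limits calls of few reads: 13 of the 48 had 0 reads in all libraries of 1 group.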

Other observations

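Some abundant microRNAs were listed at 0 in single cultured libraries. miR-142a-3p and miR-30c-5p had 0 reads in cultured ILC2 library 1 and cultured Th2 library 2, although another library of each group held at least 1000 CPM, and miR-378d had 0 in library 3 of both groups. miR-122-5p had 0 in cultured Th2 library 2 and miR-322-5p in cultured Th2 library 3. Entries absent from a count table were set to 0 here, so a 0 of this kind need not be a count of the cells.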
